A study of Drosophila melanogaster with 16 samples.

Results

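The comparison described here is between males and females of *Drosophila melanogaster* over 4 lines, with 8 male and 8 female libraries of whole flies, which are all 16 libraries of the series. Of 17490 genes in the table of raw counts, 16212 had a median count of at least 2 over the libraries, and these are the genes tested. Each line gave 2 libraries of either sex, and each library held the RNA of 30 flies aged 3 to 5 days. In *208-ΔA*, *208-ΔF* and *208-ΔG*, isolated independently of each other, a deletion removes the promoter and exon 1 of *Uhg4*, a long noncoding RNA gene that hosts small nucleolar RNAs. The background of all 4 is DGRP_208, an inbred wild-type line without *Wolbachia*, which is itself the control line. Flies homozygous for a deletion are sterile in both sexes, which limits the deletion lines as a model of a normal germ line, and the stocks are kept over the balancer chromosome *CyO*.

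An adult male fly holds testes, where spermatogonia pass through meiosis into long-tailed sperm, and accessory glands, ejaculatory duct and ejaculatory bulb, which secrete seminal fluid. An adult female holds ovaries, in which nurse cells load the oocyte with RNA, yolk enters from outside and follicle cells lay down the vitelline membrane and the chorion of the eggshell. Females have a pair of X chromosomes and males have an X and a Y, and a complex of proteins with the noncoding RNAs *roX1* and *roX2* raises transcription of the male X. In bulk RNA, fewer cells of a type and less RNA per cell cannot be told apart.

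Summed counts lay between 22401064 and 51954693 for a male library and between 13902521 and 44093287 for a female library. Levels are given as CPM, counts scaled for depth on library sizes scaled by the trimmed mean of M-values (TMM). Fold changes are log2 values of males over females, averaged over the lines, from edgeR's quasi-likelihood test, and a gene was called higher or lower at a Benjamini-Hochberg adjusted p under 0.05 over all genes tested. Libraries of the same group differed in a component seen in both sexes, for which the median level of chemoreceptor genes served as a measure. It ranged from 0.35 to 5.92 RPKM, counts scaled for depth and gene length, was lowest in *208-ΔA* female replicate 1 and highest in *208-ΔG* female replicate 1, and lay above 2.8 RPKM in all 4 libraries of *208-ΔG*. Transcripts typical of the other sex were counted in every library, and which library held most depended on the genes. Yolk protein genes took 0.129% of the counts of *208-ΔA* male replicate 2 against at most 0.0339% in the other males, and sperm chromatin genes took 0.00473% of *208-ΔF* female replicate 2 against at most 0.00164% in the other females. Other groups of genes gave another order. Vitelline membrane genes took 0.034% of *208-ΔA* male replicate 2 and 0.0327%, 0.034% and 0.0278% of *208-ΔG* males 1 and 2 and DGRP_208 male replicate 2, and chorion genes took 0.00261% of the former and 0.0199%, 0.0217% and 0.0184% of the latter. Among females, *208-ΔG* replicate 1 was close to *208-ΔF* replicate 2 for sperm tail genes (0.0697% and 0.0694%) and seminal fluid genes (0.0204% and 0.0227%).

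Genes higher in males were changed by more than genes lower in males. Of the genes tested, 3368 were higher (20.8%) and 3081 lower (19%), together 39.8%, and their median sizes were 2.32 and 0.72 on the log2 scale. At a change of 8-fold or more the numbers were 1233 (7.61%) and 67 (0.413%), and at 32-fold or more they were 455 and 7. All 8 male libraries lay above all 8 female libraries for 2073 genes (12.8%) and below them for 877 (5.41%). Without *208-ΔA* male replicate 2, with the highest yolk share among males, and *208-ΔF* female replicate 2, with the highest sperm chromatin share among females, 3178 genes were higher and 2889 lower. No gene tested was without counts in all females or in all males.

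**Figure D1:**
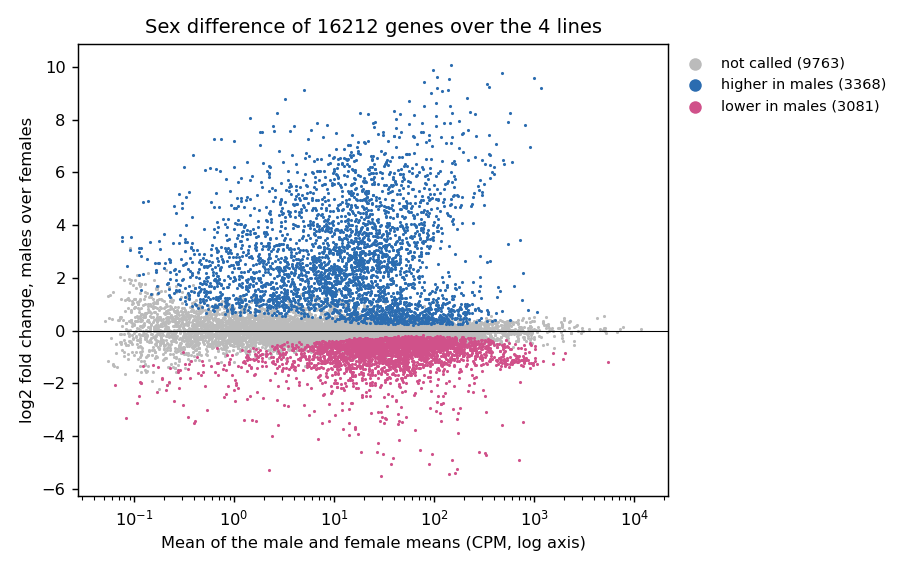
Log2 fold change of males over females against mean level in CPM (log axis) for the 16212 genes tested, each point a gene. The 3368 genes called higher in males (blue) reach a log2 fold change of 10.09, whereas the 3081 called lower (pink) stop at -5.50.

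The genes that rose most clearly in males were secreted proteins of the reproductive tract and genes without a descriptive name. By the smallest p among genes with at least 10 CPM and no overlap of the sexes, the leading genes were *CG43101*, *Sfp24Ba*, *CG43788*, *BG642312*, *CG44198*, *CG31883*, *Acp24A4*, *CG34034*, *Sgp* and *lncRNA:CR43684*. *Sfp24Ba*, a seminal fluid protein gene, stood at 56.9 to 195 CPM in males (median 122) and at 0.237 to 0.904 CPM in females (median 0.376), with a log2 fold change of 8.18 ± 0.278 (SE, adjusted p = 8.46e-08, edgeR). The long noncoding RNA *lncRNA:CR43684* stood at 13.7 to 38.5 CPM in males and 0.0977 to 0.519 CPM in females (log2 fold change 6.52). That the lowest male library lay above the highest female library for each of these 10 genes follows from the rule that chose them.

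The corresponding genes lower in males were *CG7443*, *Sf3b3*, *nop5*, *Ns1*, *CG12744*, *ras*, *Hel25E*, *Prat*, *zyd* and *CG3335*, with smaller differences. Several of them act in RNA handling or nucleotide supply: *Sf3b3* encodes a splicing factor subunit, *Hel25E* an RNA helicase for mRNA export, *nop5* a protein of small nucleolar ribonucleoproteins, and *ras* and *Prat* enzymes of purine synthesis. *nop5* stood at 24 to 62.7 CPM in males (median 28) and 66.1 to 273 CPM in females (median 188), a log2 fold change of -2.47 ± 0.22 (SE, adjusted p = 5.52e-06, edgeR). *Hel25E* stood at 35.9 to 53 CPM in males and 70.9 to 148 CPM in females (log2 fold change -1.30). Of the exon bases of *Sf3b3* 57.9% lie under another gene, so its reads cannot be assigned to it with certainty.

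**Figure D2:**
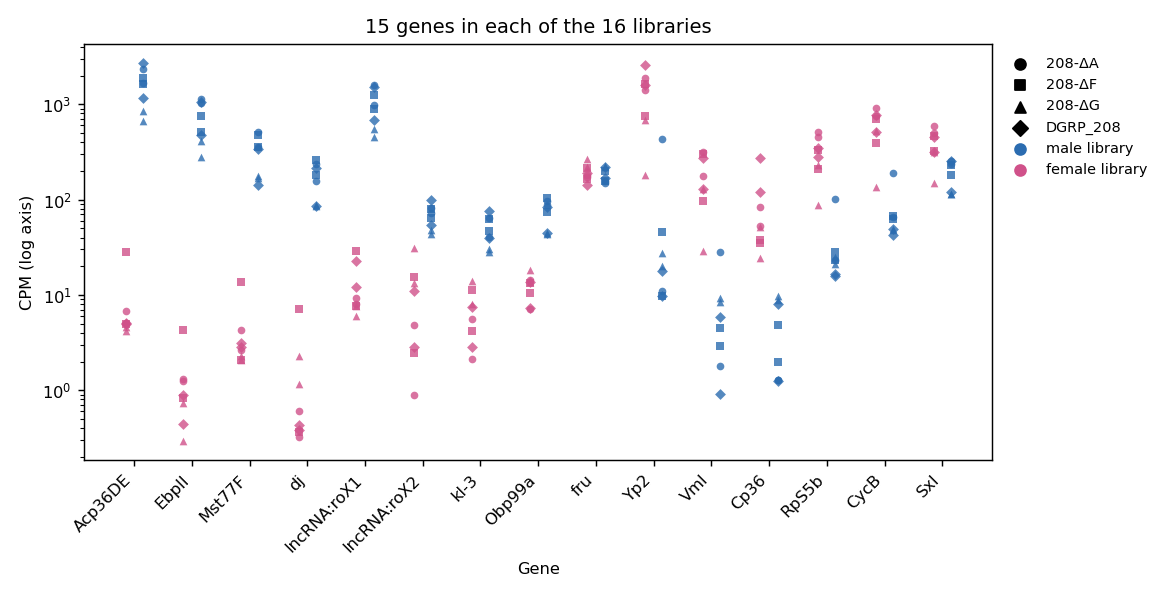
Level in CPM (log axis) of 15 genes in each library, with males in blue, females in pink and a marker shape for each line. *Acp36DE*, *EbpII*, *Mst77F*, *dj*, *lncRNA:roX1* and *Obp99a* are higher in every male library than in every female library, *Vml* and *Cp36* are lower in every male library, and the sexes overlap at *fru*, *Yp2*, *RpS5b*, *CycB* and *Sxl*.

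Of the lists, seminal fluid genes had the highest median log2 fold change over the lines, followed by sperm chromatin genes, whose summed share differed slightly more (103-fold against 94.9-fold). All 31 tested of 32 members were higher in males, with a median log2 fold change of 7.04 against -0.03 over all genes, and 30 of them did not overlap between the sexes. Together they took 0.527% to 0.931% of the counts of a male library (median 0.722%) and 0.00344% to 0.0227% of a female library (median 0.00655%). *Acp36DE*, whose product is needed for sperm storage in the mated female, stood at 668 to 2717 CPM in males and 4.22 to 28.4 CPM in females (log2 fold change 7.79 ± 0.418 SE, adjusted p = 4.58e-07, edgeR). *SP*, the sex peptide that alters female receptivity and egg laying, stood at 133 to 403 CPM in males and 0.0551 to 4.86 CPM in females (log2 fold change 9.54). The highest female value of *Acp36DE* was that of *208-ΔF* female replicate 2, and without it and *208-ΔA* male replicate 2 the median of the list was 7.50.

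The ejaculatory duct and bulb showed the same direction. Of 6 members, 5 were higher in males. *Anp*, an antibacterial peptide of the ejaculatory duct, stood at 78.4 to 385 CPM in males and 0.0474 to 1.14 CPM in females (log2 fold change 9.89 ± 0.444 SE, adjusted p = 2.17e-07, edgeR). *EbpII*, an ejaculatory bulb protein, stood at 278 to 1133 CPM in males and 0.293 to 4.25 CPM in females (log2 fold change 9.26). The exception was *EbpIII*, with 192 to 573 CPM in males and 143 to 427 CPM in females (log2 fold change 0.26, adjusted p = 0.268, edgeR), the most abundant of these genes in females.

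Testis genes were higher in males at each step of sperm development that the lists covered. The testis-specific transcription factors, among them relatives of general factors that switch on meiosis and spermatid genes, were higher for 8 of 10, with a median log2 fold change of 1.42. *sa* and *can*, which encode such testis relatives of TBP-associated factors, stood at 5.96 to 27.9 and 8.03 to 18.8 CPM in males and at 1.96 to 4.27 and 1.05 to 6.88 CPM in females (log2 fold changes 2.37 and 2.19). *aly* and *comr* were not called (log2 fold changes 1.11 and 0.88). Without *208-ΔA* male replicate 2 and *208-ΔF* female replicate 2, all 10 were called.

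The comet and cup genes, transcribed in spermatids after meiosis, were all higher (10 of 10, median log2 fold change 2.67). *w-cup* stood at 370 to 1170 CPM in males and 3.42 to 34.7 CPM in females (log2 fold change 6.27), and *c-cup* at 17.6 to 50.3 and 0.0611 to 1.43 CPM (log2 fold change 6.80). Both separated the sexes completely, as did 7 of the 10.

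Genes for packing sperm DNA and building the tail had larger differences. All 7 sperm chromatin genes were higher, none overlapping between the sexes, with a median of 6.61 and a summed share of 0.0544% to 0.113% in males and 0.000396% to 0.00473% in females. *ProtB*, a protamine that replaces histones in sperm, stood at 53.9 to 160 CPM in males and 0.121 to 5.64 CPM in females (log2 fold change 7.83 ± 0.519 SE, adjusted p = 8.02e-07, edgeR). *Mst77F*, a linker-histone-like sperm protein, stood at 141 to 506 and 2.06 to 13.7 CPM, but it has copies on the Y chromosome, and reads shared with them may have been dropped or split. The highest females were again *208-ΔF* replicate 2 for both genes.

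All 23 tested of 24 genes of the sperm tail and its mitochondria were higher in males (median log2 fold change 5.82), and 22 did not overlap. *dj*, a sperm tail protein, stood at 85 to 262 CPM in males (median 169) and 0.327 to 7.04 CPM in females (median 0.519). *Cyt-c-d*, the testis cytochrome c used in spermatid individualization, stood at 35.1 to 101 and 0.163 to 4.50 CPM (log2 fold change 5.38). The heavy chains of axonemal dyneins that are not on the Y chromosome changed less: 3 of 6 were higher, *Dhc36C*, *Dnah3* and *Dhc98D*, with log2 fold changes of 1.49, 1.74 and 1.53. *Dnah3* stood at 151 to 220 CPM in males and 11.9 to 176 CPM in females, so that the sexes overlapped. Without any 1 of *208-ΔA* female replicate 2, *208-ΔF* female replicate 2, DGRP_208 female replicate 1 and DGRP_208 male replicate 1, 5 of the 6 were called.

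Testis paralogs of common machinery parted from the machinery itself. The testis proteasome subunits were all higher in males (13 of 13, median log2 fold change 3.11), whereas the general proteasome subunits had a median of -0.09. Of these 32 general subunits 7 (21.9%) were lower, near the 19% of all genes. *Rpt3R*, a testis copy of an ATPase of the regulatory particle, stood at 16.9 to 54.5 CPM in males and 1.14 to 5.47 CPM in females (log2 fold change 3.67). Its general counterpart *Rpt3* stood at 46.7 to 106 and 61.2 to 168 CPM (log2 fold change -0.69). The number of general subunits called lower fell to 3 or 4 without any 1 of 10 of the libraries, among them *208-ΔA* male replicate 1 (3), and rose to 9 without *208-ΔF* female replicate 2.

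Oxidative phosphorylation showed the same split. Of 21 testis paralogs tested, 18 were higher (median 3.56), whereas 4 of 63 general nuclear genes of this pathway were higher and their median was -0.01. *SdhAL*, a paralog of the flavoprotein subunit of succinate dehydrogenase, stood at 19.8 to 59.4 CPM in males and 1.65 to 5.13 CPM in females (log2 fold change 3.56). Without DGRP_208 male replicate 2, 9 of the general genes were higher. Of the 4 that rose, the most changed was *ND-51L2*, with 7.36 to 20.6 CPM in males and 1.87 to 3.36 CPM in females (log2 fold change 2.31), itself a duplicate of a complex I subunit gene. The others were *ND-51L1* (1.43), by its name another such duplicate, *ND-MWFE* (1.07) and *ND-B8* (1.01). The general list thus still held duplicates among its called members. The mitochondrial genome did not follow either sex, with a share of counts of 1.62% to 3.52% in males and 1.02% to 3.74% in females. By edgeR and by DESeq2 0 of its 20 genes tested were called, and 0 had an unadjusted p under 0.05.

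The Hsp60 chaperones divided in the same way. *Hsp60B* and *Hsp60C*, paralogs that serve male fertility, stood at 200 to 525 and 241 to 631 CPM in males and at 0.653 to 40 and 1.55 to 46.5 CPM in females (log2 fold changes 4.69 and 4.74). *Hsp60A*, the general mitochondrial chaperonin, was lower in males (-0.82). Of 18 heat shock genes tested, 6 (33.3%) were higher and 5 (27.8%) lower, against 20.8% and 19% of all genes. The lower group held *Hsp83*, *Hsp26* and *Hsp27* (-1.04, -0.95 and -1.20), which are strongly expressed in ovaries. Without any 1 of 8 of the libraries, such as *208-ΔG* female replicate 2, 3 rather than 5 were lower.

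**Figure D3:**
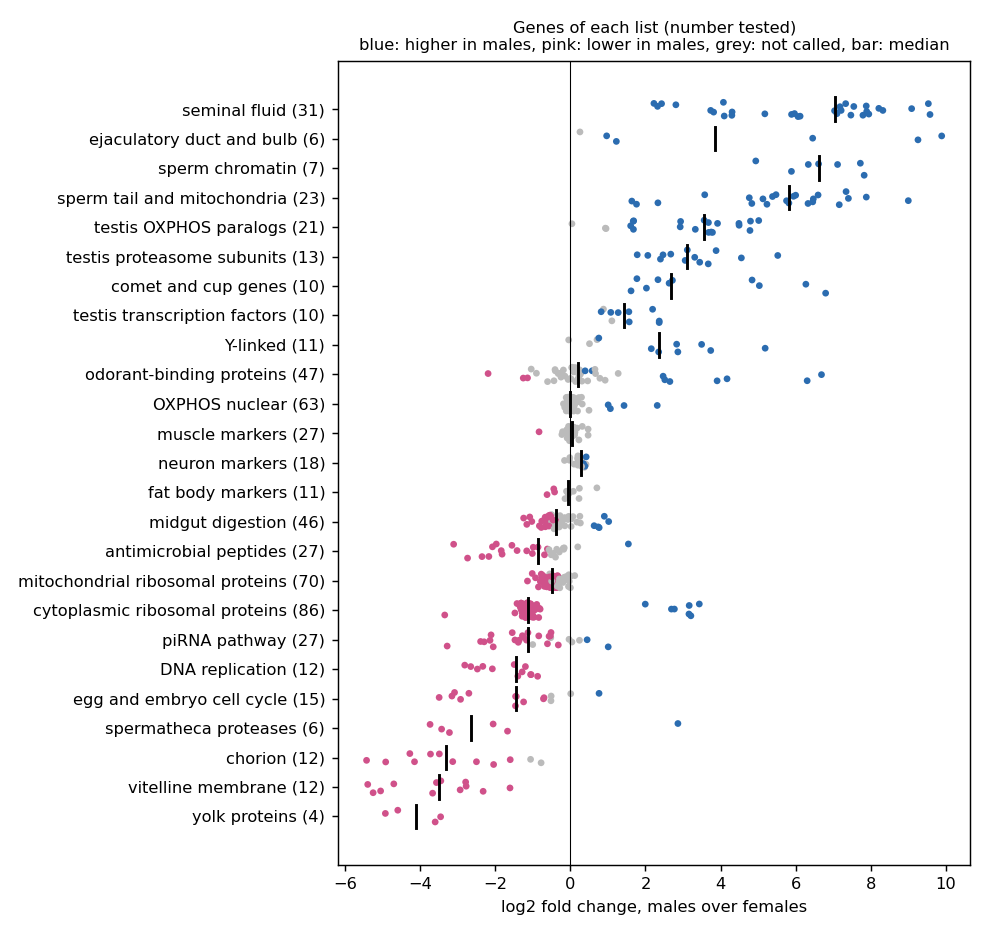
Log2 fold change of males over females for the tested genes of 25 lists, each point a gene, with the black bar at the list's median. The medians run from 7.04 for seminal fluid to -4.10 for yolk proteins, and the few blue points of the cytoplasmic ribosomal proteins lie apart from the rest of that list.

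Eggshell and yolk genes were lower in males. All 12 vitelline membrane genes and all 4 yolk genes were lower (median log2 fold changes -3.51 and -4.10), and 10 of 12 chorion genes (-3.31). The chorion medians within lines were -4.5 in *208-ΔA*, -1.9 in *208-ΔF*, -1.9 in *208-ΔG* and -4.4 in DGRP_208. The study saw no late-stage oocytes in dissected ovaries of *208-ΔF* and *208-ΔG*. *Yp2*, a yolk protein made in fat body and follicle cells, stood at 9.71 to 430 CPM in males (median 19) and 181 to 2559 CPM in females (median 1506), with a log2 fold change of -4.93 ± 0.702 (SE, adjusted p = 1.71e-04, edgeR). The value of 430 CPM was that of *208-ΔA* male replicate 2 and 181 CPM that of *208-ΔG* female replicate 1, and these are the libraries through which the sexes overlapped. *yl*, the receptor through which the oocyte takes up yolk, stood at 6.12 to 229 CPM in males and 294 to 1430 CPM in females, without overlap (log2 fold change -3.60).

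*Vml*, a vitelline membrane protein, stood at 0.916 to 28.5 CPM in males and 29.2 to 315 CPM in females (log2 fold change -4.70). *Cp38*, a chorion protein, stood at 1.91 to 21.7 and 59.3 to 904 CPM (log2 fold change -4.92). The late chorion gene *Cp15* varied most among females, from 1.96 CPM in *208-ΔA* replicate 1 to 1077 CPM in DGRP_208 replicate 2 (log2 fold change -5.43). The other female of *208-ΔA* held 236 CPM, so that the difference was within a line as well. Chorion genes together took 0.0237% to 0.27% of the counts of females, with the highest share in DGRP_208 replicate 2. The median of the vitelline membrane genes without *208-ΔA* male replicate 2 and *208-ΔF* female replicate 2 was -4.25, and all 12 were called.

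Genes of the female germ line were also lower in males, by less. Of 17 maternal RNA genes tested, 10 were lower and 2 higher (median -0.61). *vas*, a germ line helicase, stood at 4.37 to 30.5 CPM in males and 19.6 to 118 CPM in females (log2 fold change -2.89), and *bcd*, whose RNA patterns the embryo, at 1.93 to 19.1 and 26.8 to 41 CPM (log2 fold change -1.98). *pgc* and *osk*, of the germ plasm, had log2 fold changes of -5.50 and -4.74, the latter with 84.1% of its exon bases under another gene. The exceptions were *exu*, whose product also acts in the male germ line, with 286 to 898 CPM in males and 46.6 to 137 CPM in females (log2 fold change 2.60), and *BicC* (4.17), of whose exon bases 94.8% lie under another gene.

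The piRNA pathway silences transposons in the germ line and the follicle cells. Of its 27 genes 20 were lower in males and 2 higher, with a median of -1.13, and 10 did not overlap between the sexes. *tej*, a germ line factor of this pathway, stood at 2.01 to 4.87 CPM in males and 6.54 to 22.9 CPM in females (log2 fold change -2.30 ± 0.238 SE, adjusted p = 1.63e-05, edgeR). *aub* and *AGO3*, the Argonaute proteins of the germ line, had log2 fold changes of -2.14 and -2.39. *Hen1*, which methylates small RNAs, and *papi* were higher (1.01 and 0.45). *lncRNA:flam*, the precursor of piRNAs of the follicle cells at X:21631891-21790731 of the BDGP6 assembly (dm6), stood at 1.49 to 6.28 CPM in males and 13.2 to 20.7 CPM in females, with a log2 fold change of -2.01.

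Cell cycle and replication genes were mostly lower in males. All 12 DNA replication genes tested were lower in males (median -1.45), and 11 of 15 genes of the egg and embryo cell cycle (median -1.44). *CycB*, a mitotic cyclin, stood at 42.8 to 192 CPM in males and 137 to 913 CPM in females (log2 fold change -3.09), and *gnu*, a regulator of the egg to embryo transition, at 1.63 to 17 and 17.8 to 86.6 CPM (log2 fold change -3.50). *RnrL*, the large subunit of ribonucleotide reductase, stood at 4.86 to 17.2 and 27.7 to 113 CPM (log2 fold change -2.65). The gene of this group that rose was *sub* (0.76), a kinesin of the meiotic spindle.

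Proteases of the spermatheca, the female's sperm store, were lower in males for 5 of 6. *Send1* stood at 0.248 to 3.98 CPM in males and 4.59 to 15.3 CPM in females (log2 fold change -3.22), and *CG32834* at 0.945 to 19.8 and 25 to 72.7 CPM (log2 fold change -3.43). *CG32833* went the other way, with 4.15 to 10 CPM in males and 0.221 to 2.44 CPM in females (log2 fold change 2.86).

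Cytoplasmic ribosomal protein genes changed as a body. Of 86 tested, 79 were lower in males and 7 higher, with a median log2 fold change of -1.14, and the 4 lines gave medians of -1.04 (*208-ΔA*), -0.97 (*208-ΔF*), -1.11 (*208-ΔG*) and -1.42 (DGRP_208). Their summed share of counts was 1.88% to 3.89% in males (median 2.66%) and 2.87% to 7.46% in females (median 6.15%), with overlap. The 7 that rose were the duplicate genes *RpS10a*, *RpS28-like*, *RpS19b*, *RpL37-2*, *RpL22-like*, *RpS28a* and *RpL10Aa*, with log2 fold changes of 1.99 to 3.43. *RpS10a* stood at 7.04 to 15.2 CPM in males and 0.898 to 2.98 CPM in females. The largest fall was that of the duplicate *RpS5b*, with 15.9 to 102 CPM in males and 87.2 to 515 CPM in females (log2 fold change -3.35 ± 0.315 SE, adjusted p = 8.13e-06, edgeR).

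Mitochondrial ribosomal protein genes were lower in males for 42 of 70 and higher for 0 (median -0.49), DESeq2 also calling 0 higher, and 0 having an unadjusted p under 0.05 in that direction. *mRpL38* stood at 20.4 to 26 CPM in males and 32.3 to 41.1 CPM in females (log2 fold change -0.60). The number lower was 24 without *208-ΔA* male replicate 1 and 25 without *208-ΔG* male replicate 1.

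Small nucleolar RNAs, which guide modification of ribosomal RNA, were lower in males for 79 of 172 and higher for 1, *snoRNA:kis-a* (log2 fold change 2.13), with a median of -0.85. Without any 1 of 12 libraries, such as *208-ΔA* female replicate 1, or by DESeq2, 0 were higher, and 2 had an unadjusted p under 0.05 in that direction. The medians of the lines differed, at -0.06 (*208-ΔA*), -1.03 (*208-ΔF*), -0.61 (*208-ΔG*) and -1.61 (DGRP_208). *snoRNA:Psi28S-291*, chosen after its values were seen, stood at 48.7 to 208 CPM in males and 89 to 364 CPM in females (log2 fold change -1.15). Without *208-ΔG* female replicate 2 the number lower was 45, and without *208-ΔG* male replicate 2 it was 51. *208-ΔA* male replicate 2 held the highest share of these RNAs among males (0.184% against at most 0.108% in the others).

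Long noncoding RNAs leaned toward males. Of 1816 tested, 467 (25.7%) were higher and 49 (2.7%) lower, against 20.8% and 19% of all genes, and their summed share of counts was 1.37% to 1.91% in males and 1.05% to 1.73% in females. The number lower was 32 without *208-ΔG* female replicate 2 and also without *208-ΔG* male replicate 2. On the autosome arms, 422 of 1582 were higher and 25 lower, and on the X chromosome 42 of 219 were higher and 23 lower. Antisense RNAs gave 54 higher (16.6%) and 8 lower (2.45%) of 326, and pseudogenes 35 (14.5%) and 14 (5.81%) of 241. In both classes the share higher was below the 20.8% of all genes, and the share lower was further below its 19%. The counting is not stated to use strand, so that reads of an antisense RNA and its partner cannot be told apart. *asRNA:CR44370*, with 4.5% of its exon bases under another gene, stood at 120 to 378 CPM in males and 7.88 to 19.8 CPM in females (log2 fold change 4.46).

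Protein-coding genes differed in structure by direction. The median exonic length was 1749 bases over all 13229 tested, 1318 for the 2781 higher in males, 971 for those at least 8-fold higher, and 2202 for the 2871 lower. Genes annotated with only a single exon in every transcript made up 14.9% of all, 26.1% of those higher and 10.6% of those lower. Symbols that are only a CG or CR number, which mark genes not yet named for a function, made up 43.6%, 62.7% and 27.9%. These are descriptions with no test, and a longer gene gathers more counts at the same level.

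The X chromosome carried fewer genes higher in males and more genes lower in males than the autosomes. Of 2451 genes tested on it, 378 (15.4%) were higher and 691 (28.2%) lower, against 2930 (21.9%) and 2332 (17.5%) of 13354 on the arms of chromosomes 2 and 3. The share of all counts on the X was 13.7% to 17.0% in males (median 14.5%) and 16.7% to 19.6% in females (median 17.4%). Averaged over lines, the log2 ratio was -0.22, and males were lower in each line (-0.27 in *208-ΔA*, -0.28 in *208-ΔF*, -0.16 in *208-ΔG* and -0.17 in DGRP_208). An exact two-sided permutation of sex within lines gave p = 0.00154, the smallest that 1296 arrangements allow, and 0.00274 after adjustment over 32 measures. The sexes nonetheless overlapped over lines, because males of *208-ΔG* and a DGRP_208 male, replicate 2, held 16.8% to 17.0% and the females of *208-ΔA* 16.7% and 17.0%.

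The largest male differences were spread unevenly too. Genes at least 8-fold higher in males made up 5.22% of those on the X, 11.1% on arm 2L, 6.24% on 2R, 7.68% on 3L and 7.41% on 3R. The 23 tested sperm tail genes and 31 tested seminal fluid genes all lie on autosome arms. Among genes with a mean of at least 10 CPM, 13.2% on the X and 21.6% on the autosome arms were higher, and 35.2% and 24.7% were lower. The small chromosome 4 had 8 of 105 genes higher (7.62%) and 11 lower (10.5%), under the 20.8% and 19% of all genes.

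**Figure D4:**
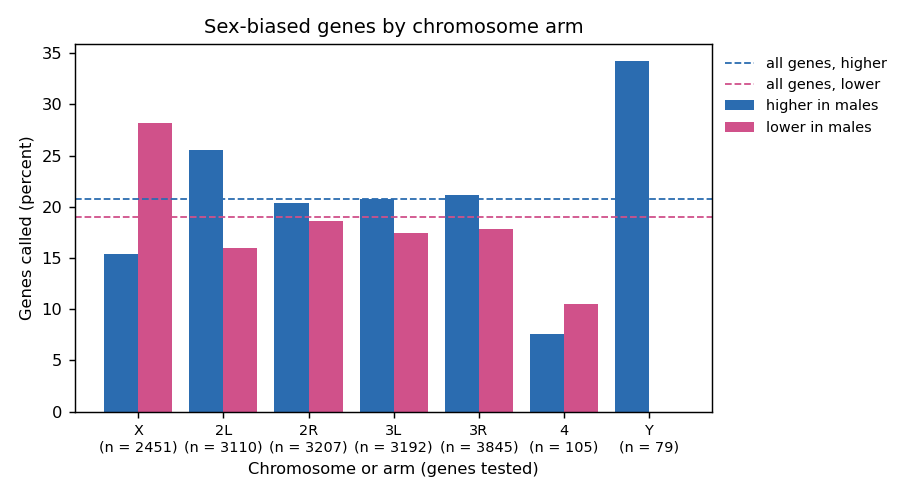
Percent of tested genes called higher (blue) or lower (pink) in males for each chromosome arm, with the number tested below it and dashed lines at the percents over all genes. The X has 15.4% higher and 28.2% lower, arm 2L has 25.6% higher and 16% lower, and the Y has 34.2% higher and none lower.

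Lists of general machinery and of tissues common to both sexes were split into genes on the X and on the autosome arms. Of the cytoplasmic ribosomal proteins, the 14 on the X had a median log2 fold change of -1.07 and the 71 on the arms of -1.14. The arms held the 7 duplicates higher in males and *RpS5b*. For mitochondrial ribosomal proteins the medians were -0.55 (11 on the X, 72.7% lower) and -0.46 (59 on the arms, 57.6% lower). They were -0.16 and 0.01 for chemoreceptors, 0.25 and 0.31 for neuron markers and 0.09 and 0.00 for muscle markers, the last 2 with 4 and 3 genes on the X. Of the general oxidative phosphorylation genes, the 10 on the X had -0.04 and the 51 on the arms 0.01. The 4 proteasome subunit genes on the X, with a median of -0.57, were all lower, whereas the 28 on the arms had a median of -0.03. That difference of the proteasome subunits rests on 4 genes on the X.

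Among X-linked genes higher in males was an RNA of the dosage compensation complex. *lncRNA:roX1*, at X:3857230-3862697, stood at 451 to 1589 CPM in males (median 941) and 5.96 to 29 CPM in females (median 8.60), with a log2 fold change of 6.31 ± 0.358 (SE, adjusted p = 4.6e-07, edgeR). *lncRNA:CR43279*, *Muc14A*, *CG6481*, *CG32655* and *CG2871* had the smallest p among genes of this chromosome without overlap. *Muc14A*, a mucin-like gene, stood at 54 to 217 CPM in males and 4.90 to 9.46 CPM in females (log2 fold change 3.99). The corresponding genes lower in males were *ras*, *zyd*, *CG8939*, *yin* and *Cp36*.

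Of the 9 dosage compensation genes, 3 (33.3%) were higher in males and 2 (22.2%) lower, against 20.8% and 19% of all genes. *lncRNA:roX2*, at X:11579065-11580432, stood at 44 to 97.9 CPM in males and 0.898 to 30.8 CPM in females, with a log2 fold change of 3.05 ± 0.466 (SE, adjusted p = 2.91e-04, edgeR). The female at 30.8 CPM was *208-ΔG* replicate 1, and the log2 fold changes within lines ran from 1.06 in *208-ΔG* to 4.67 in *208-ΔA*. *msl-2*, the subunit whose translation is blocked in females, stood at 32.4 to 40.9 CPM in males and 19.6 to 35.7 CPM in females (log2 fold change 0.41, adjusted p = 0.00745, edgeR), with -0.02 in *208-ΔG*. Its call was lost with library size only (adjusted p = 0.0534, edgeR).

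*msl-1* was lower in males (43 to 65.2 against 58.9 to 176 CPM, log2 fold change -1.34). *Unr*, which helps to block *msl-2* in females, had a log2 fold change of -0.75 (adjusted p = 0.0262, edgeR). That call was lost without any 1 of 8 libraries, with adjusted p up to 0.0943 without *208-ΔG* female replicate 2. *Clamp*, *mle*, *msl-3* and *mof*, the rest of the complex and its recruiter, had log2 fold changes of -0.21, -0.16, -0.29 and -0.40 and were not called. *Clamp* was called without *208-ΔF* female replicate 2 (adjusted p = 0.0356, edgeR) and *mof* without DGRP_208 male replicate 2 (adjusted p = 0.0382, edgeR).

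The sex determination genes act largely through splicing, which counts per gene do not resolve. Of 11, 6 (54.5%) were lower in males and 2 (18.2%) higher, against 19% and 20.8% of all genes. *Sxl*, the switch that is on in females, stood at 113 to 255 CPM in males and 149 to 588 CPM in females (log2 fold change -1.04 ± 0.201 SE, adjusted p = 0.00147, edgeR), and lay between -0.95 and -1.14 in all 4 lines. *tra*, its splicing target, stood at 4.41 to 7.50 and 6.54 to 13.5 CPM (log2 fold change -0.74). The cofactors *nito*, *fl(2)d* and *snf* had -0.75, -0.56 and -0.59, and *her* had -0.37, which was lost without any 1 of 5 libraries (adjusted p up to 0.0622 without *208-ΔF* male replicate 2, edgeR).

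*dsx*, the transcription factor at the end of the pathway, was higher in males, with 91.9 to 186 CPM against 88.5 to 109 CPM in females (log2 fold change 0.51, adjusted p = 5.58e-04, edgeR). Within lines it was 0.70, 0.58, 0.07 and 0.70 for *208-ΔA*, *208-ΔF*, *208-ΔG* and, last, DGRP_208. *tra2* had 0.34 (adjusted p = 0.0389, edgeR), lost without any 1 of 11 libraries (up to 0.122 without *208-ΔF* male replicate 2). *fru*, the factor of male courtship circuits, stood at 150 to 225 CPM in males and 143 to 270 CPM in females (log2 fold change -0.05), and *ix* and *vir* had -0.43 and -0.24, none of them called.

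Y-linked genes were measurable in females, which have no Y. Of 11 listed Y-linked genes 8 were higher in males (median log2 fold change 2.35), and of 79 genes tested on the Y 27 were higher. *ARY* stood at 3.35 to 12.2 CPM in males and 0.0635 to 0.505 CPM in females (log2 fold change 5.19), and *kl-3*, a dynein heavy chain of the sperm flagellum, at 28.1 to 75.7 and 2.12 to 13.8 CPM (log2 fold change 2.86). *CCY*, *kl-2*, *Pp1-Y2* and *Ppr-Y* also did not overlap, with log2 fold changes of 3.50, 2.35, 3.74 and 2.83. *kl-5* did not overlap either, at 43.8 to 70.3 CPM in males and 2.78 to 35.3 CPM in females (2.16), and *FDY*, at 9.44 to 15.4 and 4.08 to 14.7 CPM, did (0.76).

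*ORY*, *WDY* and *Pp1-Y1* were not called (log2 fold changes 0.71, 0.51 and -0.04). In females *ORY* stood at 0.898, 1.43, 2.53, 3.40, 7.96, 7.89, 8.03 and 16.1 CPM when the libraries are ordered from the lowest to the highest chemoreceptor level. The highest of these, in *208-ΔG* replicate 1, exceeded all males, which ranged from 4.03 to 14 CPM. That library also held 35.3 CPM of *kl-5* and 176 CPM of the autosomal dynein gene *Dnah3*, the highest values among females. In the same order of libraries, the listed Y-linked genes together took 0.00117%, 0.00166%, 0.00241%, 0.00244%, 0.00543%, 0.00729%, 0.0074% and 0.0154% of counts. *ARY* did not follow that order, at 0.163, 0.221, 0.275, 0.0635, 0.0724, 0.505, 0.19 and 0.244 CPM. *ORY* was called without DGRP_208 female replicate 1 (adjusted p = 0.0312, edgeR). The part of this library component in the levels of Y-linked genes in females was not tested.

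Of 7 genes of hydrocarbon and pheromone synthesis, 3 (42.9%) were higher in males and 2 (28.6%) lower, against 20.8% and 19% of all genes. *Fad2* and *eloF*, the desaturase and elongase of the female cuticular dienes, stood at 0.67 to 90.8 and 0.843 to 13 CPM in males and at 142 to 508 and 22.3 to 85.5 CPM in females (log2 fold changes -3.91 and -3.29). *Elo68alpha*, an elongase of the male pheromone cis-vaccenyl acetate, stood at 6.76 to 26.2 CPM in males and 0.146 to 1.37 CPM in females (log2 fold change 4.57), and *bond*, another elongase, at 83.4 to 161 and 27.8 to 68 CPM (1.21). The third gene that was higher was *Elo68beta* (1.81). Counts of whole flies do not show in which tissue these genes differed.

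Of 6 genes known for sex-specific expression in the head fat body, 3 (50%) were higher in males and 1 (16.7%) lower. *Obp99a* stood at 43.7 to 104 CPM in males and 7.19 to 18.3 CPM in females (log2 fold change 2.52 ± 0.212 SE, adjusted p = 3.69e-06, edgeR), and *sxe2*, a lipase gene, at 16.6 to 36.6 and 8.05 to 12.8 CPM (1.33). *Cyp4d21* had 1.12 and *fit*, named for its expression in females, -1.37, each with overlap. *to* and *Obp99b* had -0.06 and 0.24 and were not called. Of 47 odorant-binding proteins tested 9 (19.1%) were higher and 3 (6.38%) lower (*Obp57a*, *Obp56a* and *Obp19c*), against 20.8% and 19% of all genes. *Obp51a* and *Obp56f* stood at 13.9 to 68.4 and 11.4 to 31.3 CPM in males against at most 0.488 and 0.715 CPM in females (6.69 and 6.31).

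Antimicrobial peptides were lower in males for 16 of 27 and higher for 1, *CecA1* (1.54), with a median of -0.86. *Drs*, the antifungal drosomycin, stood at 6.14 to 52.7 CPM in males (median 15.3) and 55.5 to 176 CPM in females (median 102), without overlap (log2 fold change -2.35 ± 0.257 SE, adjusted p = 2.44e-05, edgeR). *Mtk*, metchnikowin, stood at 7.13 to 28.5 and 20.8 to 112 CPM (-1.97). The medians of the lines were -1.26, -0.76, -0.95 and -0.99 for *208-ΔA*, *208-ΔF*, *208-ΔG* and, last, DGRP_208.

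Digestive enzymes of the midgut were lower for 19 of 46 and higher for 5 (median -0.37). The lower group held trypsins, Jonah proteases, lysozymes and *Mal-A5*, for example *zetaTry* (20.1 to 37.7 CPM in males, 30.6 to 54.5 CPM in females, log2 fold change -0.57). The higher group was mostly maltases, such as *Mal-A7* (91 to 367 and 57.2 to 166 CPM, 1.02). The lysozyme genes *LysB*, *LysC*, *LysD* and *LysE* are near copies, and how their reads were divided is uncertain. Of 81 cytochrome P450 genes tested 10 (12.3%) were higher and 7 (8.64%) lower, under the 20.8% and 19% of all genes. *Cyp312a1* stood at 75.6 to 217 CPM in males and 7.44 to 16.7 CPM in females (3.72), and *Cyp6a19* at 0.794 to 14.7 and 7.13 to 84.7 CPM (-4.61), its highest male being *208-ΔA* replicate 2 and its lowest female *208-ΔG* replicate 1. The number of P450 genes lower was 3 or 4 without any 1 of 6 libraries, for example 3 without *208-ΔA* male replicate 1.

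Markers of tissues common to both sexes had small fold changes in most genes. Of 27 muscle markers 1 was lower in males, *TpnC73F* (-0.83), and their summed share was 3.74% to 6.77% of counts in males and 3.76% to 6.97% in females. Of 18 neuron markers 4 (22.2%) were higher (median 0.28), near the 20.8% of all genes. They were *brp*, *VAChT*, *futsch* and *Gad1*, with log2 fold changes of 0.35, 0.34, 0.39 and 0.42. Of 16 photoreceptor markers tested 3 (18.8%, also near that share) were higher (median 0.21), the rhodopsins *Rh4* and *Rh6* and *rdgB*. Summed, neuron markers took 0.37% to 0.566% of the counts of males and 0.344% to 0.462% of those of females, and photoreceptor markers 0.41% to 0.628% and 0.361% to 0.547%, with overlap. Averaged over lines, these shares were nonetheless higher in males, by log2 ratios of 0.204 and 0.197 (adjusted p = 0.0112 and 0.0158, exact permutation of sex within lines). With chemoreceptor level as a covariate, 12 neuron and 8 photoreceptor markers were higher. Without *208-ΔA* male replicate 2 and *208-ΔF* female replicate 2, 1 gene of each of these last lists was called. Without *208-ΔA* male replicate 1, 0 neuron markers were called, and without DGRP_208 male replicate 2, 11 neuron, 7 photoreceptor and 3 muscle markers were higher. By DESeq2 1 neuron marker was higher, and with its size factors 0 neuron and 0 photoreceptor markers were.

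Fat body markers were lower for 3 of 11 (27.3%, *Apoltp*, *Mtp* and *Lsd-2*), against 19% of all genes, with a median of -0.06. Hemocyte markers were lower for 4 of 9 (44.4%, *Col4a1*, *vkg*, *Pxn* and *Hml*), with a median of -0.23. Summed, hemocyte markers took 0.13% to 0.204% of the counts of males and 0.194% to 0.259% of those of females. Fat body markers took 0.388% to 0.846% and 0.353% to 0.73%. The log2 ratios of these shares were -0.469 for hemocytes and -0.019 for fat body (adjusted p = 0.00274 and 0.878, exact permutation of sex within lines). *vkg*, a collagen gene, stood at 359 to 746 CPM in males and 528 to 956 CPM in females (-0.51). The counts fell to 1 fat body marker without any 1 of 8 libraries and to 1 or 2 hemocyte markers without any 1 of 10, such as *208-ΔG* female replicate 2 for both. Of 175 chemoreceptor genes tested 7 (4%) were higher in males. *Gr32a*, a taste receptor for male pheromones, stood at 1.98 to 6.07 CPM in males and 0.163 to 2.29 CPM in females (log2 fold change 1.70), and DGRP_208 males held 1.98 and 2.01 CPM, below every other male. Without *208-ΔF* female replicate 1, 4 chemoreceptors were higher. Of 117 cuticle proteins tested 6 (5.13%) were higher and 3 (2.56%) lower, under the shares of all genes, and without DGRP_208 male replicate 2, 7 were lower.

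Sex-biased genes were called in each line, in differing numbers. Within lines, 2586 genes (16%) were higher and 1315 (8.11%) lower in males of *208-ΔA*, 2127 (13.1%) and 692 (4.27%) in *208-ΔF*, 910 (5.61%) and 87 (0.537%) in *208-ΔG*, and 2066 (12.7%) and 1305 (8.05%) in DGRP_208. Of the genes called over all lines, 96.3% of those higher and 97.7% of those lower had the same sign in all 4 lines. These genes were called on the mean of the same 4 lines, which by itself favors agreement of sign and medians of that sign within lines. Called in all 4 lines were 888 higher and 72 lower. The median log2 fold change of the 3368 higher genes was 3.21, 2.38, 1.19 and 2.40 in *208-ΔA*, *208-ΔF*, *208-ΔG* and, last, DGRP_208. Of the 910 genes higher in *208-ΔG*, 98.2% were also higher in DGRP_208, and 43.3% of those of DGRP_208 were higher in *208-ΔG*. Counts within a line leaned on single libraries. In *208-ΔG* 302 genes in all were called without female replicate 2, 664 without male replicate 1 and 629 without male replicate 2, against 997. In *208-ΔA* 2396 were called without female replicate 1 and 2163 without male replicate 1, against 3901. In *208-ΔF* 1410 were called without female replicate 1 and 1457 without male replicate 2, against 2819. In DGRP_208 1535 were called without female replicate 2 and 1955 without male replicate 1, against 3371.

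The smaller differences of *208-ΔG* were seen in most but not all lists. Testis proteasome subunits had line medians of 4.87, 3.05, 1.41 and 3.13 for *208-ΔA*, *208-ΔF*, *208-ΔG* and, last, DGRP_208, and vitelline membrane genes -3.38, -4.01, -1.96 and -4.31. Seminal fluid genes had 7.44, 5.76, 5.92 and 7.21, and sperm chromatin genes 8.33, 5.48, 6.31 and 6.80, where *208-ΔF* was lowest. In the test of Line by Sex by edgeR, 0 genes had an adjusted p under 0.05, the smallest being 0.368. A sex difference that differs between lines was thus not established for any gene by this test, with its 8 residual degrees of freedom. Of the 16212 genes tested 736 had an unadjusted p under 0.05. No other tool was run for that term here. The study's own analysis of variance, with another scaling and a false discovery rate under 0.1, reported genes significant for Line by Sex. All 4 libraries of *208-ΔG* had chemoreceptor levels above 2.8 RPKM, and the part of that level in the smaller differences of this line was not tested.

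**Figure D5:**
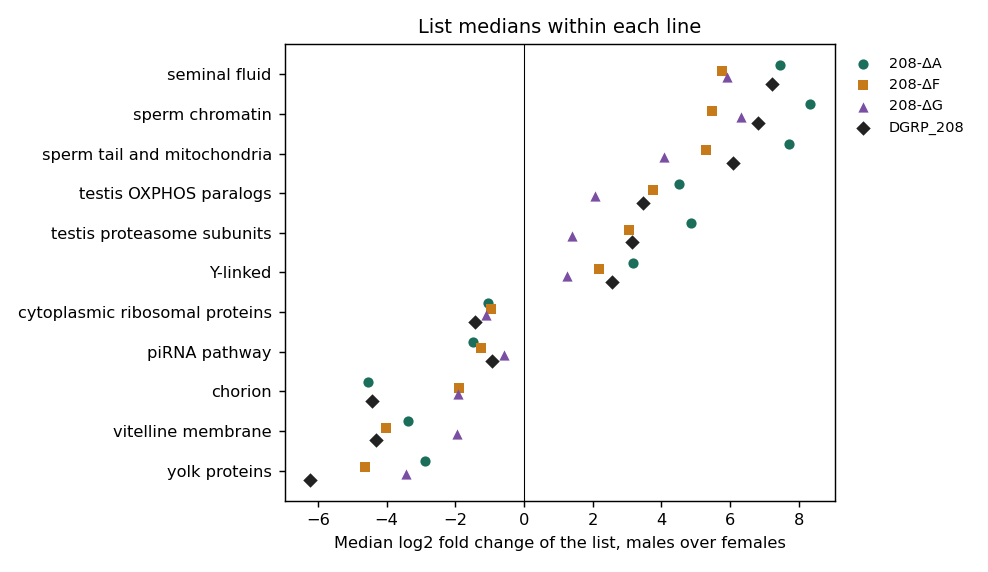
Median log2 fold change of males over females within each line for 11 lists, with a marker for each line. *208-ΔG* (purple triangles) lies nearest to 0 in the sperm tail, testis oxidative phosphorylation, testis proteasome and Y-linked lists, at 1.41 for testis proteasome subunits, while the ribosomal proteins lie close together, from -0.97 to -1.42.

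*Uhg4* itself, at 2R:9095273-9097312, checks the labels of the lines. It stood at 6.66 and 6.67 CPM in DGRP_208 females, 1.89 and 0.974 CPM in DGRP_208 males and 0.195 to 1.02 CPM in the deletion lines. A *208-ΔF* male at 1.02 CPM and a *208-ΔA* male at 0.992 CPM thus lay above the lower DGRP_208 male. Over all lines the sex difference of *Uhg4* was -0.37 and was not called. Within lines it was 0.92 in *208-ΔA*, 0.28 in *208-ΔF*, -0.44 in *208-ΔG* and -2.2 in DGRP_208, the only line with an intact gene.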

How the data were processed

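The authors deposited unnormalized counts of reads for each gene. By the methods and labels, ribosomal RNA was depleted, reads were filtered, aligned to dm6 with GSNAP, and unique alignments counted with featureCounts of Subread, whose strand setting and version are not given in the sources used here. Unique counting loses reads of near-identical genes. The study calls the libraries of a group biological replicates, without saying whether they came from separate cultures, and p-values measure the spread between these samples.

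Counts were scaled with TMM and fitted with 8 group means in edgeR 4.0.16 (R 4.3.3, 8 residual degrees of freedom) on genes whose median count reached 2. Sex was the mean of the male groups less that of the female groups. Shares of counts were compared by an exact permutation of sex within lines, and 25 of 32 measures had an adjusted p under 0.05. The tests across genes were run on simulated data with few changed genes of random direction. The data here have many more, with larger changes toward males, so that run does not show how the tests perform here. Chromosome, class and exon overlap came from the Ensembl annotation of BDGP6, which held 17288 of 17490 identifiers. The 181 tested identifiers that are not in it gave 19 higher and 45 lower.

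The comparison and the 39 lists were chosen with earlier results of these data known, and 7 list entries had no match. After the files were read, *ND-MNLL* was moved from the testis paralogs to the general genes and cyclophilins were dropped from the P450 list. Genes were named by these rules: up to 10 per direction with the smallest p, at least 10 CPM and no overlap; the 4 with the smallest p of each list; all genes of the Y, yolk, sex determination, dosage and head lists; up to 5 per direction of each noncoding class and of the X; and *Uhg4* with genes already known from earlier results. Other genes were chosen after their values were seen. Alternatives were DESeq2 1.42.0, limma-voom and a linear model per gene (limma 3.58.1), 4 other scalings, other filters, thresholds and designs, chemoreceptor level as a covariate, libraries of some lines alone, and leaving out libraries.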

Additional observations from a re-analysis of the deposited data

Results flagged for a closer look

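Each value here lay so far from the other libraries of its sex that the gap passed Dixon's 95% limit for 8 values. For 8 values of a single population, chance passes that limit in about 1 in 20 groups. Here 32 measures were examined in each sex, so some passes would arise by chance. The 8 values also come from 4 lines, and some measures share genes. In *208-ΔG* female replicate 1, the library with the highest chemoreceptor level, the share of counts was the lowest among females for chromosome 4 (1.08% against at least 1.65% in the others). It was the highest among females for the Y chromosome (0.036% against at most 0.0174%), long noncoding RNAs (1.73% against 1.34%), antisense RNAs (0.144% against 0.0835%), testis proteasome subunits (0.0176% against 0.00872%), testis oxidative phosphorylation paralogs (0.0492% against 0.0237%), listed Y-linked genes (0.0154% against 0.0074%) and chemoreceptors (0.284% against 0.138%). *208-ΔA* male replicate 2 had the highest share among males for small nucleolar RNAs (0.184% against 0.108%) and yolk proteins (0.129% against 0.0339%). *208-ΔF* female replicate 2 had the highest share among females for sperm chromatin genes (0.00473% against 0.00164%), and DGRP_208 female replicate 2 for chorion genes (0.27% against 0.117%).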

How the results depend on the processing

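Counts of genes higher and lower in males stayed within 1.5 times of 3368 and 3081 under DESeq2, limma-voom, a linear model, 4 other scalings, other filters, the additive design and the deletion lines alone. They were 4672 lower with chemoreceptor level as a covariate, 1095 higher and 168 lower with DGRP_208 alone (fewer samples), and 943 lower at 2-fold or more. Without 1 library they ran from 3118 to 3802 higher and 2388 to 3212 lower. Genes called within lines were 6440 (*208-ΔA*), 4830 (*208-ΔF*), 1952 (*208-ΔG*) and 5881 (DGRP_208) with the covariate, and 1611 in *208-ΔG* with DESeq2, whose cause was not tested. Leaving out 1 library gave 2163 to 4510, 1410 to 3137, 302 to 1232 and 1535 to 3384, a lone sample being assumed to vary like the other groups. With the replicate number as a block, 3251 genes were higher and 2881 lower. The numbers do not pair the samples, as the correlations of deviations ran from -0.771 to 0.596.

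Of the named genes 213 were called, and 198 of these were called in every leave-out. Direction changed for uncalled *Pp1-Y1* (0.26 by limma-voom, 0.20 by the linear model, 0.01 with the replicate block, 0.14 in the deletion lines, -0.23 to 1.5 without 1 library), and, with DGRP_208 alone, for *fru* (0.27), *ix* (0.18), *to* (0.05) and *tra2* (-0.01). *Uhg4* had 0.23 in the deletion lines alone. Without 1 library *Obp99b* ran from -0.10 to 0.61, *fru* from -0.09 to 0.02 and *to* from -0.14 to 0.03. Log2 ratios of shares ran from -0.228 to -0.076 for chromosome 4, -0.057 to 0.243 for the mitochondrial genome (-0.006 without *208-ΔA* male replicate 2 and *208-ΔF* female replicate 2), -0.081 to 0.047 for general oxidative phosphorylation, -0.054 to 0.133 for muscle, 0.161 to 0.233 for photoreceptors, -0.092 to 0.054 for fat body and -0.315 to 0.348 for chemoreceptors. Genes near 1 CPM rest on few reads in the shallower female libraries.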
